A study of Mus musculus with 8 samples.

Results

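The NF-kB family and its IkB regulators were examined in marginal zone B cells of C57BL/6 mice, as 10 genes chosen by symbol from the 23997 genes of the deposited table. They were the Rel-family subunits Nfkb1, Nfkb2, Rel, Rela and Relb, the cytoplasmic inhibitors Nfkbia and Nfkbie, and the nuclear IkB proteins Nfkbid, Nfkbiz and Bcl3. All 10 were present. Marginal zone B cells are splenic B cells that meet blood-borne antigen at the marginal sinus. The labels describe 8 RNA sequencing libraries, 4 of genotype ACKR3+ and 4 of genotype ACKR3-, from 4 mice per group, and the titles name the groups GFPposi and GFP-. ACKR3 is an atypical receptor for the chemokine CXCL12. The labels give no treatment, age or sex, and do not say what drives GFP or how the cells were gated.

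The deposited table holds 1 estimated fragment count per gene, with its variance, for each of 2 conditions named q1 and q2. Neither name matches a label, so the columns were not tied to ACKR3+ or ACKR3- cells and every difference below is between q1 and q2. With 1 value per condition there was no replicate check and no test. The value after ± is the SD implied by the deposited variance, and log2 ratios are q2 over q1 after adding 1 fragment to each column. Column totals were 16877559 and 16653774 fragments, and the depth of single libraries is unknown. B cell genes were abundant in both columns, with Cd79a at 30681 and 30249 fragments. Ackr3 itself was at 1030 fragments in q1 against 149 in q2. As background serve the 9582 genes that reached 100 fragments in q1 or q2. All 10 genes exceeded 500 fragments in both columns, so the 6184 genes that reached 500 in q1 or q2 give a closer one.

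NF-kB transcription factors are dimers of Rel-family proteins. In resting cells the cytoplasmic IkB proteins hold the dimers outside the nucleus, and B cell receptor or Toll-like receptor signals lead to IkB degradation through the IKK complex. The canonical pathway releases dimers of p50, made from the Nfkb1 product, with RelA or c-Rel. The alternative pathway, driven by BAFF and CD40, turns the Nfkb2 product into p52, which pairs with RelB. The nuclear IkB proteins instead bind p50 or p52 on DNA and raise or lower transcription of selected targets. Mice that lack Nfkb1 or Nfkbid form few marginal zone B cells.

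Many genes of the family carry binding sites for NF-kB itself, the kappa B sites, and the stretches that hold such letters are shown first because the genes are both parts and targets of the pathway. RefSeq promoter windows (GRCm38.p6, 250 bases before to 50 after an annotated start) were matched by symbol for 7 of the 10 genes, in 11 windows. Nfkb1, Relb and Nfkbiz were not matched. The strict motif searched, on both strands, reads GGGA, any base (N) and then TTTCC. It was present for Nfkbia and Nfkb2, 2 of 7 genes, and for 0.466% of all 27025 genes with a window. The looser motif, which reads GGGNN and then TTTCC and includes every strict match, added Rel, for 3 of 7 genes against 1.89%. The general kappa B consensus, with purines and pyrimidines at its variable places, includes the strict motif but not every match of the looser one, and was chosen after the sequences were seen. It was present for 6 of 7 genes, all but Rela, against 9.55% of all genes, and in 8 of the 11 windows. Among 11745 windows within the GC range of these 11 (56.3% to 75.0%), 12.7% held it. A match is a description of letters, not a site shown to be bound. The stretches below run 5′ to 3′ on the gene's strand, with the matched letters in capitals.
Nfkbia, chr12:55492657-55492686, minus strand, upstream of the gene: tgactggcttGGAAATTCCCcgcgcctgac
Nfkb2, chr19:46305695-46305724, plus strand, 5′ UTR: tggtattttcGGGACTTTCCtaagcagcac
Nfkb2, chr19:46304688-46304717, plus strand, 5′ UTR: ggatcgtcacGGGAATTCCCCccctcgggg
Rel, chr11:23771042-23771071, minus strand, upstream of the gene: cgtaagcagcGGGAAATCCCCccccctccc
Nfkbid, chr7:30422170-30422199, plus strand, intron: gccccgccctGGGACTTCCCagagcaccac
Nfkbid, chr7:30422215-30422244, plus strand, intron: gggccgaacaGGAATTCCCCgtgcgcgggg
Nfkbie, chr17:45555584-45555613, plus strand, upstream of the gene: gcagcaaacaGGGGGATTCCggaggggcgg
Bcl3, chr7:19822734-19822763, minus strand, 5′ UTR: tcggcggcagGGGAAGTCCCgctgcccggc
The Nfkbia match began 29 bases before the start and the Rel match 92 bases before it. Both Nfkbid stretches lay in 1 window, beginning 226 and 181 bases before an internal start of that gene. Nfkb2 held 2 further matches of the general consensus, not printed here.

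Across the 10 genes the columns were close, with a difference over 2 deposited SD for Nfkbid alone. None was 2-fold apart, where 1.84% of the 9582 genes were that far apart toward q2 and 0.438% toward q1. None was 1.5-fold apart (3.39% of genes toward q2 and 1.58% toward q1). By a smaller rule, a level at least 25% above that of the other column, 1 gene was higher in q1, Nfkbid (4.59% of genes), and none in q2 (6.9%). By the rule of 2 deposited SD the count was again 1 in q1 (2.11% of genes) and 0 in q2 (4.15%). With any difference counted, 6 of 10 were higher in q1 (49.8% of genes) and 4 in q2 (50.2%). The median log2 ratio of the 10 was -0.06, against 0.00 over the 9582 genes. The median absolute log2 ratio was 0.0614, against 0.0929 over the 6184 genes, and 8 of the 10 lay within 1 deposited SD, as did 80.8% of those genes. As a group the 10 ratios lay no farther from 0 than those of genes of like abundance.

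**Figure D1:**
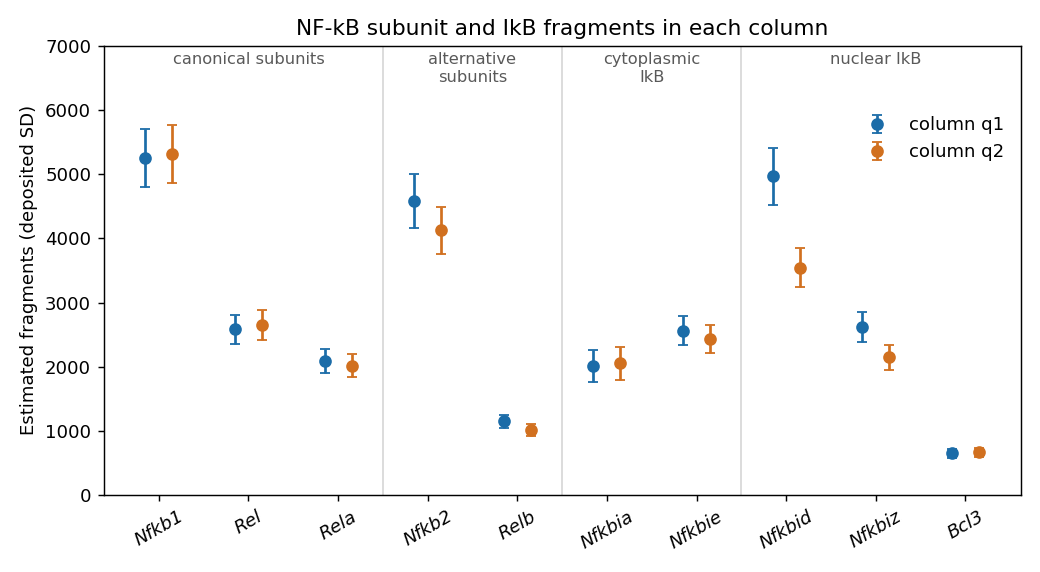
Estimated fragments of the 10 genes (y axis) in column q1 (blue) and column q2 (orange), grouped by role. Points are the deposited values and bars the deposited SD; the bars of q1 and q2 overlap for every gene but Nfkbid and Nfkbiz.

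The 3 canonical subunits had nearly the same levels in both columns. Nfkb1 (chromosome 3, 135584655 to 135691547, minus strand, GRCm38) encodes the precursor of p50. Its level was 5251 ± 452 fragments in q1 against 5316 ± 457 in q2, and its log2 ratio was 0.02 ± 0.18. Rel (chromosome 11, 23736847 to 23770970, minus strand) encodes c-Rel, a subunit prominent in lymphocytes. Its level was 2586 ± 226 fragments in q1 against 2652 ± 231 in q2, and its log2 ratio was 0.04 ± 0.18. Rela (chromosome 19, 5637483 to 5648130, plus strand) encodes the broadly expressed transactivating subunit RelA. Its level was 2085 ± 185 fragments in q1 against 2017 ± 179 in q2, and its log2 ratio was -0.05 ± 0.18. Each of these differences was under 0.3 of its SD. Summed per kilobase of transcript, the log2 ratio of the 3 genes was 0.00 ± 0.11.

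The 2 subunits of the alternative pathway were both slightly higher in q1, within the deposited error. Nfkb2 (chromosome 19, 46304320 to 46312385, plus strand) encodes the precursor of p52. Its level was 4581 ± 416 fragments in q1 against 4125 ± 369 in q2, and its log2 ratio was -0.15 ± 0.18. Relb (chromosome 7, 19606217 to 19629438, minus strand) encodes the usual partner of p52. Its level was 1146 ± 108 fragments in q1 against 1013 ± 97 in q2, and its log2 ratio was -0.18 ± 0.19. Their sum per kilobase stood at -0.16 ± 0.15 on the log2 scale, so that the pair lay about 1 SD toward q1. Among the 6184 genes, 13.9% were as far toward q1 as Nfkb2 and 10.8% as far as Relb. Exons of Nfkb2 overlap those of Psd on the opposite strand by 299 bases, and Psd had 409 and 359 fragments. They also share 531 bases with a noncoding RNA on that strand, AC114539.1, which is not in the table. Whether counting used strand is not given in the sources used here.

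Neither cytoplasmic inhibitor differed between the columns beyond its error. Nfkbia (chromosome 12, 55489410 to 55492647, minus strand) encodes IkB-alpha, which is resynthesised when NF-kB is active and ends the response. Its level was 2004 ± 249 fragments in q1 against 2049 ± 255 in q2, and its log2 ratio was 0.03 ± 0.25. Nfkbie (chromosome 17, 45555703 to 45563169, plus strand) encodes IkB-epsilon, which restrains c-Rel and RelA dimers. Its level was 2563 ± 224 fragments in q1 against 2433 ± 213 in q2, and its log2 ratio was -0.07 ± 0.18. Together they stood at -0.01 ± 0.17 per kilobase on the log2 scale.

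Nfkbid and Nfkbiz, 2 of the 3 nuclear IkB genes, gave the family's largest differences, both toward q1, while Bcl3 was near level. Nfkbid (chromosome 7, 30421732 to 30428746, plus strand) encodes IkBNS, a p50-binding regulator of B cell development and antibody responses. Its level was 4968 ± 441 fragments in q1 against 3545 ± 307 in q2, which is 28.6% lower. Its log2 ratio was -0.49 ± 0.18, or 2.72 deposited SD and a 1.40-fold difference. Among the 6184 genes, 1.57% lay as far toward q1 on the log2 scale, and 3.01% were as many SD apart in either direction.

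Nfkbiz (chromosome 16, 55811375 to 55838899, minus strand) encodes IkB-zeta, which is induced by Toll-like receptor ligands and needed for a set of secondary response genes. Its level was 2618 ± 232 fragments in q1 against 2145 ± 191 in q2, and its log2 ratio was -0.29 ± 0.18 and 1.59 deposited SD. Among the 6184 genes, 4.46% were as far toward q1. Bcl3 (chromosome 7, 19808462 to 19822770, minus strand) encodes a partner of p50 and p52 homodimers that can activate transcription. Its level was 651 ± 68 fragments in q1 against 666 ± 69 in q2, and its log2 ratio was 0.03 ± 0.21. Nfkbid was thus higher in q1 by more than 2 SD and Nfkbiz by less, while the values of Bcl3 overlapped. An antisense gene not in the table, Gm16175, shares 161 exonic bases with Bcl3.

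**Figure D2:**
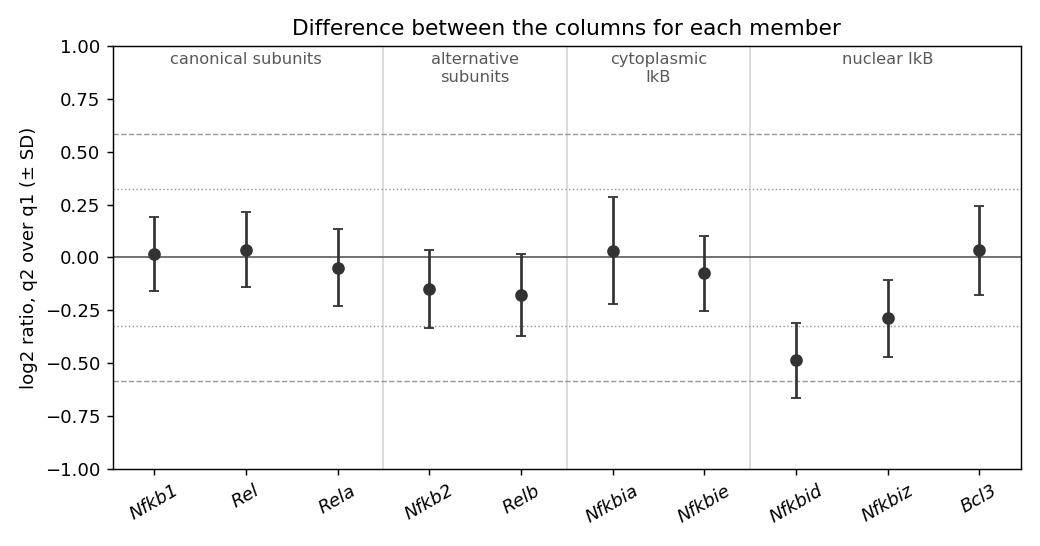
Log2 ratio of q2 over q1 for each gene (y axis), with bars of 1 SD from the deposited variances. Dotted lines mark a 25% difference and dashed lines 1.5-fold; Nfkbid, at -0.49, is the one gene beyond a dotted line.

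How far the Nfkbid ratio stood from those of its relatives was less clear than its distance from 0, because both genes of a pair carry error. Over the 45 pairs among the 10 genes, 2 differed in log2 ratio by more than 2 SD. Nfkbid stood 0.52 ± 0.25 below Rel, or 2.07 SD, and 0.50 ± 0.25 below Nfkb1, or 2.01 SD. Its distance from Bcl3 was 0.52 ± 0.28 and that from Nfkbia 0.52 ± 0.31. From Nfkbiz the distance was 0.20 ± 0.25, within its SD.

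Levels of different genes were compared as fragments per kilobase of the longest GENCODE M21 transcript. Nfkbid was the most abundant of the 10 in each column, with 2437 ± 216 fragments per kilobase in q1 and 1739 ± 151 in q2. Next in q1 were Nfkbia at 1270 ± 157, Nfkb1 at 1266 ± 109 and Nfkb2 at 1191 ± 108, whose neighbours in that order lay within 2 SD of each other. Nfkbid exceeded Nfkbia by 1.92-fold in q1, or 4.36 SD, and by 1.34-fold in q2, or 1.99 SD. Below Nfkb2 by 2.58 SD, Nfkbie followed at 853 ± 74, Rela at 768 ± 68 and Nfkbiz at 636 ± 56 in q1. Below Nfkbiz by 4.23 SD, the lowest were Bcl3 at 352 ± 37, Relb at 350 ± 33 and Rel at 346 ± 30, which could not be ordered. In q2 the same 8 genes held the first 8 places, and Rel and Relb exchanged the last places.

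The order rests on the transcript length used for each gene. In q1 Nfkbid stayed in first place with the median length of coding transcripts and with merged exons. In q2 it stayed first with merged exons, at 1511 fragments per kilobase, but with the median coding length Nfkb1 was at 1768 and Nfkbid at 1760. Nfkb1, whose merged exons span 12061 bases against 4149 for its longest transcript, went in q1 from place 3 to place 7 with merged exons, at 435 fragments per kilobase.

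**Figure D3:**
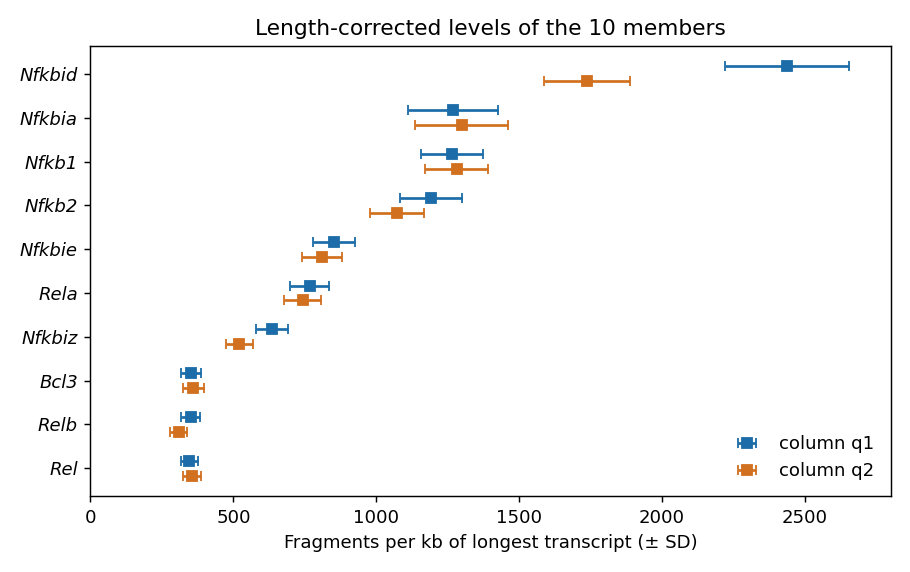
Fragments per kilobase of the longest transcript (x axis) for the 10 genes, ordered by q1, in q1 (blue) and q2 (orange), with bars of 1 deposited SD. Nfkbid leads in each column, at 2437 and 1739.

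Within the 5 Rel-family genes the make-up per kilobase was nearly the same in both columns. Nfkb1 supplied 32.3% ± 2.2 of their summed level in q1 and 34.1% ± 2.2 in q2. Nfkb2 supplied 30.4% ± 2.2 and 28.5% ± 2.1, Rela 19.6% ± 1.6 and 19.7% ± 1.6, Relb 8.9% ± 0.9 and 8.2% ± 0.8, and Rel 8.8% ± 0.8 and 9.4% ± 0.9. These are shares of transcript and not of protein, and they rest on the lengths used. With merged exons Nfkb1 supplied 15.8% in q1 and 16.9% in q2, below Nfkb2 at 36.3% and 34.4% and Rela at 24.6% and 25.1%. Within the 5 IkB genes Nfkbid supplied 43.9% ± 2.6 in q1 and 36.8% ± 2.5 in q2, and Nfkbia 22.9% ± 2.4 and 27.5% ± 2.7. The Nfkbid share was 42.4% and 35.3% with merged exons, and 41.3% and 34.3% with the median coding length. The summed IkB level had a log2 ratio of -0.23 ± 0.10, and -0.06 ± 0.12 without Nfkbid. The Rel-family sum stood at -0.06 ± 0.09. The SDs of these sums treat the genes as independent, so error that the genes share is not counted in them.

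Genes that feed into the pathway were also near level. Of 11 genes of the IKK complex and upstream kinases, 8 lay toward q1 (49.8% of the 9582 genes did) and 3 toward q2. Their median log2 ratio was -0.04. None was 1.5-fold apart (3.39% of genes toward q2 and 1.58% toward q1) or 2 SD apart (4.15% and 2.11%). The catalytic subunits Ikbkb and Chuk stood at -0.02 ± 0.18 and -0.04 ± 0.18, and the regulatory subunit Ikbkg at -0.08 ± 0.21. Map3k14, the kinase NIK of the alternative pathway, had 2214 and 2025 fragments, at -0.13 ± 0.18. The ratio farthest from 0 was that of Ikbke, an IKK-related kinase of antiviral signalling, at -0.32 ± 0.19. Tab1 and Tab2, adaptors of the kinase TAK1, stood at -0.24 ± 0.24 and 0.11 ± 0.18.

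None of 13 genes that act as brakes on the pathway was 1.5-fold or 2 SD apart. Of the 9582 genes, 3.39% were 1.5-fold apart toward q2 and 1.58% toward q1, and 4.15% and 2.11% were 2 SD apart. With shares so small, 0 of 13 does not set the brakes apart from other genes. Of the 13, 9 lay toward q1, as did 49.8% of the 9582 genes, and 4 toward q2, and the median was -0.08. The 3 largest ratios were each about 1.6 SD toward q1. Tnfaip3, encoding the ubiquitin-editing enzyme A20, had 1968 and 1606 fragments, at -0.29 ± 0.19. Zc3h12a, encoding the RNase Regnase that degrades inflammatory transcripts, stood at -0.29 ± 0.18, and Pdlim2, a ligase that promotes loss of nuclear RelA, at -0.29 ± 0.18. Tnip1, a partner of A20, stood at -0.12 ± 0.19. Of 4 IkB-related genes outside the 10 that reached 100 fragments, 3 lay toward q1 and 1 toward q2, with a median of -0.08. Among them Nfkbib, encoding IkB-beta, had 538 and 518 fragments, at -0.06 ± 0.22. Nkiras1 and Nkiras2, which encode small Ras-like proteins that bind IkB, stood at -0.13 ± 0.44 and 0.05 ± 0.44, and Nfkbil1 at -0.11 ± 0.26, so that all 4 ratios lay within 1 SD of 0.

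Known NF-kB targets in B cells did not share a direction. Of 30 listed genes 23 had 100 fragments, of which 14 lay toward q1 (49.8% of the 9582 genes) and 9 toward q2, with a median of -0.10. By more than 2 SD, 4 were higher in q1 and 3 in q2, where 2.11% and 4.15% of the 9582 genes were. Il10, an anti-inflammatory cytokine made by marginal zone B cells, was at 112 fragments in q1 against 55.3 in q2, a log2 ratio of -1.002 ± 0.41. Ccl3, a chemokine, had 146 and 85.2 fragments, at -0.77 ± 0.37. Il10 and Ccl3 reached 100 fragments in q1 only, so both entered the counts through the column where they were higher. Myc, the growth regulator, had 10738 and 6728 fragments, at -0.67 ± 0.19. The remaining gene toward q1, Cd69, an early activation antigen that retains lymphocytes in tissue, stood at -0.45 ± 0.20. Toward q2, Fas, a death receptor, had 114 and 194 fragments, at 0.76 ± 0.33, Cd83, an activation marker, 1622 and 2388 fragments, at 0.56 ± 0.18, and Ccnd2, a G1 cyclin, 1439 and 1876 fragments, at 0.38 ± 0.18. Cd69, Cd83 and Ccnd2 are named for their values. The direct targets Cd40 and Traf1 stood at -0.18 ± 0.18 each, and Icam1 at -0.08 ± 0.18.

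**Figure D4:**
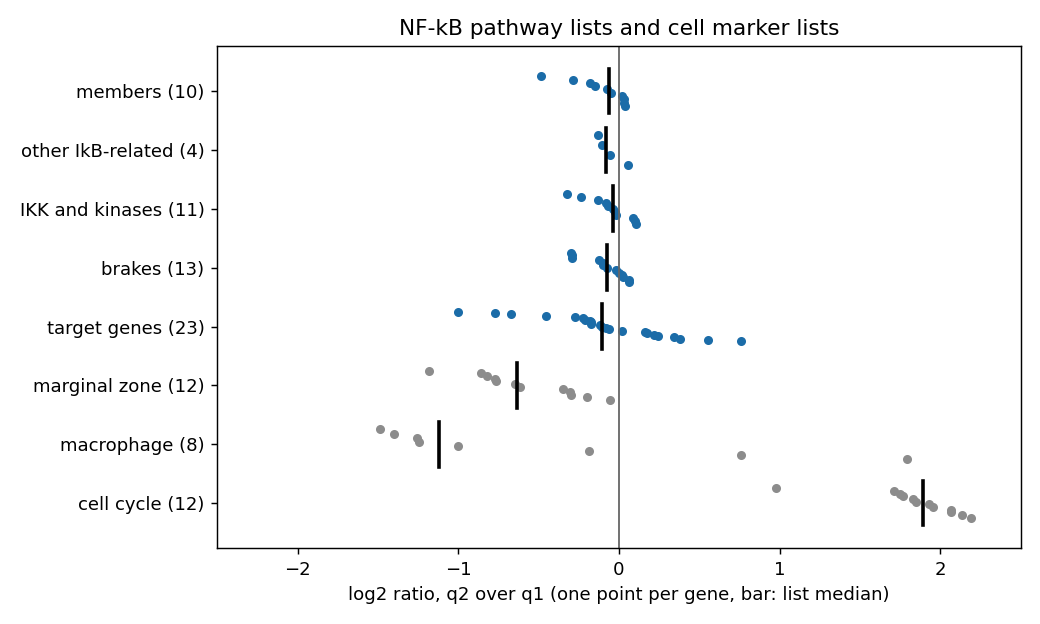
Log2 ratio of q2 over q1 (x axis) for each gene that reached 100 fragments in the 10 NF-kB and IkB genes and in 4 pathway lists (blue), and in 3 marker lists (gray), with list sizes in brackets and bars at the medians. Pathway medians lie between -0.10 and -0.04, and the marker lists at -0.63, -1.12 and 1.89. Many of the macrophage and cell cycle genes reached 100 fragments only in the column where they were higher.

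Marker lists of other cell states also differed between the columns. These lists were chosen with earlier results of these data known, so their counts describe the columns and are no independent support. All 12 marginal zone genes were higher in q1 (49.8% of the 9582 genes), with a median log2 ratio of -0.63. By more than 2 SD, 7 of them were (2.11% of the 9582 genes). Every one of 12 cell cycle genes was more abundant in q2 (50.2% of the 9582 genes), with a median of 1.89. So were 9 of 9 germinal center genes with 100 fragments. Of these germinal center genes only Bcl6 and Fas reached 100 in q1 as well. Of the cell cycle genes only Mki67, Top2a, Kif11, Ccna2 and Aurkb did. The rest of both lists entered only through q2, where they were higher, so the filter fixed their direction. Of 7 follicular genes 5 lay toward q2 (50.2% of the 9582 genes), 4 of them by more than 2 SD (4.15%), and 2 toward q1, with a median of 0.83. Of 8 plasma cell genes with 100 fragments 7 lay toward q2 (50.2%), 5 of them by more than 2 SD (4.15%), and 1 toward q1, with a median of 1.23. Among these Sdc1 reached 100 in q2 only. Of 8 macrophage and monocyte markers with 100 fragments 6 were higher in q1 (49.8% of the 9582 genes). All of the 8 but Cd68 reached 100 only in the column where they were higher, so the filter fixed their direction. The 16 markers of that list in the table gave sums of 1623 fragments for q1 and 1086 for q2, with single markers between 12.1 and 212 in q1 and between 4.84 and 208 in q2, and none at 0. Of 12 T cell markers 11 were in the table, with a sum of 899 fragments for q1 and 1319 for q2. Both that reached 100 fragments lay toward q2, Cd28 at 2.40 ± 0.46 and Lck at 0.39 ± 0.22. Cd28 reached 100 in q2 only. The 8 dendritic cell markers summed to 233 and 392 fragments, and Itgax and Flt3, the 2 that reached 100, stood at 1.13 ± 0.36 and 0.94 ± 0.36. Both reached 100 in q2 only. Of the lower dendritic cell markers, Zbtb46, Siglech, Batf3 and Clec9a lay toward q1, and Xcr1 and Cd209a toward q2. The 6 neutrophil markers in the table summed to 23.7 and 34.6, and no marker of these 3 lists was at 0. The part of these cells and states in the Nfkbid and Nfkbiz ratios was not tested. In bulk RNA, fewer cells of a type and less RNA per cell cannot be told apart.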

How the data were processed

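Libraries were made from total RNA with an Illumina TruSeq kit, per the labels' protocols. The submitters' processing notes list the build mm10 and the tools TopHat2 2.0.14, cutadapt 1.8.1 and Cuffdiff 2.2.1. The sources used here give neither annotation nor scaling. The authors deposited, per the file headers, an estimated count of fragments and its variance per condition. These deposited values are treated as a score and not as read counts, because their scaling is not stated and they are pooled over libraries. No gene had an isoform assignment part of the variance above 0, and it is not stated if the variance is that of 1 library or of a condition.

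Log2 ratios used a pseudocount of 1, so changes of low genes are understated, and first-order SDs treat the columns as independent. SDs of sums, shares and differences between genes also treat the genes as independent. Calculations used Python 3.11.15 and were tested on simulated data. A count test needs values per library, so differences were described by 25%, 1.5-fold and 2-fold rules and by 2 deposited SD. Lengths and positions came from GENCODE M21 (22694 symbols matched directly, 945 by synonym). Named were the 10 genes, Ackr3, the 4 largest absolute ratios of each pathway list with 100 fragments, and Tnfaip3, Nfkbib, Ikbkb, Chuk, Ikbkg and Map3k14; others are named as markers or for their values. Genes and lists were chosen with earlier results of these data known. Alternatives were pseudocounts of 0 and 10, minimums of 20 and 500 fragments, 2 scalings, 2 transcript lengths, and, added after seeing the data, a correction for GC content, length and expression (99.5% of tested genes had values), the general kappa B consensus, and both lengths for q2 and for the shares. 1 further pathway list is not reported here.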

Additional observations from a re-analysis of the deposited data

How the results depend on the processing

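No paired analysis was possible because values are given per condition and not per library. Leaving out single libraries, and the count tests, normalizations and low-count filters planned for library values, were not run for that reason. Under the pseudocounts, the scalings and the correction, which was chosen after seeing the data, each of 50 recomputed ratios of the 10 genes moved by less than its SD. Nfkbid lay between -0.49 and -0.42 and Nfkbiz between -0.29 and -0.26. Nfkb1 and Rela, both near 0, changed sign when corrected, to -0.0078 and 0.049. The correction also moved Nfkb2 from -0.15 to -0.053, Relb from -0.18 to -0.096 and Bcl3 from 0.03 to 0.15. Corrected, Bcl3 thus lay farther from 0 than either alternative pathway subunit. The median of the 10 genes was -0.0092 when corrected, and that of the target genes -0.027. The count of the 10 genes apart toward q1 went from 0 to 1 with the 25% rule and with 2 deposited SD. Target genes at least 2-fold higher in q1 (1, Il10) became 0 with a pseudocount of 10, equal totals or a minimum of 500 fragments, 3 with the 1.5-fold rule, and 4 with the 25% rule or 2 deposited SD; toward q2 (0) they became 1, 4 and 3 under these 3 rules. With either alternative length, 3 of the 10 genes kept their place in the q1 order per kilobase; in q2, compared after seeing the data, 4 stood at that place with the median coding length and 3 with merged exons. The genes with a match went from 2 with the strict motif to 6 with the general kappa B consensus. The consensus includes the strict motif, so the count could not fall. It was present for 9.55% of all genes, against 0.466% for the strict motif, and was chosen after the sequences were seen.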

Other observations

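Of the 30 listed NF-kB targets, 7 stayed below 100 fragments in both columns and were left out of the counts above. Bcl2l1, encoding the survival protein Bcl-xL, had 37.6 fragments in q1 and 67.6 in q2, and Cd80, a costimulatory ligand, 87.7 and 68.5. The chemokine Ccl4 had 31.4 and 21.8 fragments and the cytokine Il6 0.90 and 1.55. Among paralogs of the survival gene Bcl2a1, Bcl2a1b had 714 and 722 fragments, Bcl2a1d 174 and 203, and Bcl2a1a 1.70 and 3.15; these near-identical genes share reads, so their separate values are uncertain.

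The deposited error of Nfkbia was larger than that of genes with a like count. Its SD was 12.4% of the count in q1, where the median of a running window of 101 genes ordered by count was 8.88%, and the corresponding values in q2 were 12.4% and 8.87%. For Nfkbid the values in q1 were 8.88% and 8.61%.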
